A study of Homo sapiens with 11 samples.

Results

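Antisense long noncoding RNAs named after a partner gene were followed at the chromatin level in BEAS-2B cells and at the RNA level in RT4 cells, before, during and after nickel exposure. Members were all gene symbols that end in -AS, with or without a number, and the partner of each was the symbol in front of -AS where the same file listed it. The rule found 998 members among the 26237 promoters of the H3K4me3 data and 1162 among the 28252 genes of the RNA-Seq data. In all there were 1248 members, 912 of them in both data sets, and the partner was listed for 979 of the 998 and 1142 of the 1162.

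BEAS-2B is a line of human bronchial epithelial cells immortalised with a viral oncogene, and RT4 is a line from a human bladder papilloma. Cells of either line were untreated (UT), kept for 6 weeks in medium with 100 μM NiCl2 (Ni-E), or exposed in the same way and then returned to medium without nickel (Ni-W). RT4 Ni-W cells spent 2 weeks in nickel-free medium. BEAS-2B Ni-W cells were a population grown from 1 exposed cell for more than 6 months without nickel, so a difference in this group cannot be told apart from a property of that clone. H3K4me3, a histone mark of active promoters, was measured by ChIP-Seq in 1 library per condition, and RNA-Seq was done in 2 replicates per condition. The BEAS-2B values therefore had no replicate check, and their intervals cover counting error only. The methods call the RNA replicates biological, and neither they nor the labels say whether these were separate cultures, so the p-values measure only the spread between these libraries.

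The markers of the lines were looked at first. In RT4 cells the urothelial genes UPK2 and UPK3B had mean levels of 244 and 365 TPM (transcripts scaled to gene length and library depth), and KRT7 had 5350 TPM, while KRT20 and KRT5 had 4.28 and 3.29 TPM. Of the blood markers, PTPRC had 0.0117 TPM, CD3E was listed at 0, and CD68, a lysosomal gene that is not limited to blood cells, had 10.8 TPM. In UT BEAS-2B cells the keratin promoters KRT8 and KRT18 carried 7.33 and 7.26 RPKM of H3K4me3, but KRT5 and TP63, markers of basal airway cells, carried 0.220 and 0.388 RPKM. The mesenchymal gene promoters CDH2, VIM and TWIST1 carried 14.6, 8.95 and 7.36 RPKM in the same library, and the collagen genes COL1A1, COL1A2 and COL3A1 carried 8.74, 0.476 and 0.167 RPKM. KRT19, another simple keratin, carried 0.432 RPKM, EPCAM 2.21 RPKM and CDH1 1.02 RPKM, so the epithelial markers were marked in part.

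An antisense RNA is read from the strand opposite to its partner. Some start head to head with the partner, so that 1 stretch of open DNA serves both directions, while others start inside the partner or beyond its end and have a promoter of their own. Individual antisense RNAs are known to act on the partner, as CDKN2B-AS1 (ANRIL) does at the INK4 locus, but most have no known function. H3K4me3 is laid down around active start sites in either direction and does not tell the strands apart.

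Of 1218 pairs that could be placed on GRCh38, 1217 lay on opposite strands and 1083 had overlapping gene bodies. The distance between the starts split the 969 placed pairs of the H3K4me3 data almost evenly. In 473 pairs the closest annotated starts of member and partner lay within 4 kb. Windows of 2 kb on either side of such starts, the span over which the authors counted reads, would overlap. Which start the authors used per gene is not given in the sources used here, so overlap is not known for each pair. In 496 pairs the closest annotated starts were at least 4 kb apart, and windows around them would be separate. RefSeq promoter sequences, from 250 bases before to 50 after the start, were matched for 924 members. Promoters on chromosome 8 were left out of the CpG, GC and motif values that follow, for the members and for all sets beside them.

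Promoters of members near a partner start were rich in CpG dinucleotides, with a median ratio of observed to expected CpG of 0.787 and a median GC content of 65.0%. Members at least 4 kb away had 0.298 and 51.0%, set beside 0.579 and 58.7% over all 35116 RefSeq promoters and 0.250 and 47.7% over intergenic noncoding RNAs with symbols that start with LINC. The GC box GGGCGG was found in 58.6% of the near promoters, 27.4% of the far ones and 45.0% of all. The TATA motif TATAAA went the other way, in 5.90% of near, 11.8% of far and 11.5% of all promoters. CCAAT was found in 26.8%, 36.4% and 34.6%, and CACGTG, the E-box, in 9.60%, 6.20% and 7.30%. ACGTG, which lies inside CACGTG and is the core of the hypoxia response element, was found in 27.0%, 19.7% and 21.4%, and GCGTG in 50.8%, 28.7% and 36.5%. All motifs were sought on both strands, and a match is a description of the letters only.

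The sequences below are RefSeq promoters on GRCh38.p14 of members whose values are described further on, written 5′ to 3′ on the member's own strand. Capitals mark matches to any of the 6 motifs just named, on either strand. They were chosen to show how unlike the promoters are that stood out. HIF1A-AS2 (chr14:61749040-61749339, minus strand) has a GC content of 34.7%, no CpG and no match, and lies in an intron of HIF1A-AS3 on the same strand. DIO2-AS1 (chr14:80211169-80211468, plus strand) lies inside DIO2, with 218 of the 300 bases in DIO2 exons, and holds 1 CACGTG. EPB41L4A-AS2 (chr5:112419333-112419632, plus strand), which RefSeq names EPB41L4A-DT, has 31 CpG and overlaps no annotated gene other than itself. VLDLR-AS1 (chr9:2622324-2622623, minus strand) overlaps VLDLR exons over 179 bases. KIRREL3-AS3 (chr11:127002660-127002959, plus strand) lies in KIRREL3 introns and has a GC content of 45.0%. DPP10-AS1 (chr2:115161294-115161593, minus strand) has a GC content of 80.0%, 44 CpG and 3 GC boxes. UPK1A-AS1 (chr19:35673242-35673541, minus strand) lies in UPK1A, with 169 bases in exons, and has 2 ACGTG matches.
HIF1A-AS2: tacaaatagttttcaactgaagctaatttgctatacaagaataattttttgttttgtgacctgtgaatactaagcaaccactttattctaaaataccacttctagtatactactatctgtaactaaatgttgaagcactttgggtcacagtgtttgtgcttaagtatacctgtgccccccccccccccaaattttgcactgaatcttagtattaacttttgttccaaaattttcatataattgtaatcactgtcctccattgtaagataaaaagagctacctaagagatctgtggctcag
DIO2-AS1: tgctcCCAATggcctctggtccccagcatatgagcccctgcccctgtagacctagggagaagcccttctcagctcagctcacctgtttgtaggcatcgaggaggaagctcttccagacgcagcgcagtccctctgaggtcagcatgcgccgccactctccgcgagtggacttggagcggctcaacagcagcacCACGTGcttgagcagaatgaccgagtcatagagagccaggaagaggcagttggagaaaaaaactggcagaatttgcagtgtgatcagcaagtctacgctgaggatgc
EPB41L4A-AS2: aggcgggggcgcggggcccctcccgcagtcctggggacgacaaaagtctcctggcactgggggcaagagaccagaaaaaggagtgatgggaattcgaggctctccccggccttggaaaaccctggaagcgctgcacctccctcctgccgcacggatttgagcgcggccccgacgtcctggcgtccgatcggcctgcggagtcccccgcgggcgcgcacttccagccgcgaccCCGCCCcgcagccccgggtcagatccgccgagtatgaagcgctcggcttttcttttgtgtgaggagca
VLDLR-AS1: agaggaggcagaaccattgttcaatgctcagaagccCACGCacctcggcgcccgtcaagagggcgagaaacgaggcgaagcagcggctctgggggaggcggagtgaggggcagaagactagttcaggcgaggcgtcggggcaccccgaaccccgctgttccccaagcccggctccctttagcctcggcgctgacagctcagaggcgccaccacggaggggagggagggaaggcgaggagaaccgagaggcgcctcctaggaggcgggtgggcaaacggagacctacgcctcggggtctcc
KIRREL3-AS3: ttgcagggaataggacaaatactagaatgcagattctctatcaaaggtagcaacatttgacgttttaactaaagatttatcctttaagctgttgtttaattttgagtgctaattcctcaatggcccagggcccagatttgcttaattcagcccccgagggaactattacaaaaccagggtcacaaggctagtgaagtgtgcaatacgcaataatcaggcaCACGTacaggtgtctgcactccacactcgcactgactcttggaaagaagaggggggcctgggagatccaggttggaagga
DPP10-AS1: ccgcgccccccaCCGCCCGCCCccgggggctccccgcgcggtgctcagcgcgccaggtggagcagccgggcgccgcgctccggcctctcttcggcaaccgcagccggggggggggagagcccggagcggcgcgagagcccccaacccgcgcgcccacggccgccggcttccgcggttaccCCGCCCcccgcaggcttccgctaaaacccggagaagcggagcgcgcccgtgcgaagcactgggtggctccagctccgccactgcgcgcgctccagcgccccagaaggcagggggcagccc
UPK1A-AS1: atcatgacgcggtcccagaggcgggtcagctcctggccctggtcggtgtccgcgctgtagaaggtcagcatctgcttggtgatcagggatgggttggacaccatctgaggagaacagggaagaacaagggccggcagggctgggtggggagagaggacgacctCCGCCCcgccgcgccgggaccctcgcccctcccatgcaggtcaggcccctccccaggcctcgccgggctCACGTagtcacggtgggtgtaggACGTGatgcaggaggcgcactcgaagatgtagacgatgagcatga

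In UT BEAS-2B cells the 998 antisense promoters had a median H3K4me3 level of 1.15 RPKM (reads scaled to window length and library depth), set beside 1.57 RPKM over all promoters. At least 1 RPKM was reached by 506 members (50.7%), close to the 52.8% of all promoters, and at least 5 RPKM by 344 (34.5%). This middle position was made of separate kinds of promoter. Members within 4 kb of the partner start had a median of 5.85 RPKM and 78.4% reached 1 RPKM, whereas members farther away had a median of 0.282 RPKM and 25.2% reached it. The far members thus sat close to the LINC promoters, with a median of 0.273 RPKM and 17.2%. The library depth was 28385725 reads for UT, 37493950 for Ni-E and 29933551 for Ni-W, and 3 reads, used as the floor, corresponded to 0.0264, 0.0200 and 0.0251 RPKM. In UT cells 18 members were listed at 0 reads. Among them MIF-AS1 and WEE2-AS1 were at 0 in all 3 libraries, as was MIF, a widely expressed gene, so a count of 0 allows a level of up to the floor only where reads can be placed in the window, which was not tested.

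The partners were marked more often than the members, with a median of 4.41 RPKM and 68.2% at 1 RPKM or more. Among the 496 pairs with starts at least 4 kb apart, both promoters reached 1 RPKM in 90 pairs, the partner alone in 204, the member alone in 35, and neither in 167. The gap between member and partner widened with the distance between their starts. The median absolute log2 gap in UT cells was 0.01 for 315 pairs within 500 bases, 0.05 for 75 pairs between 500 and 1000 bases and 0.21 for 51 pairs between 1000 and 2000 bases. It was 1.14 for 32 pairs between 2000 and 4000 bases, 1.74 for 47 pairs up to 10000 bases and 2.61 for 173 pairs beyond 100000 bases. For pairs within 500 bases windows around these starts are nearly the same DNA. Where the authors used such starts, these are largely the same reads counted for both genes.

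**Figure D1:**
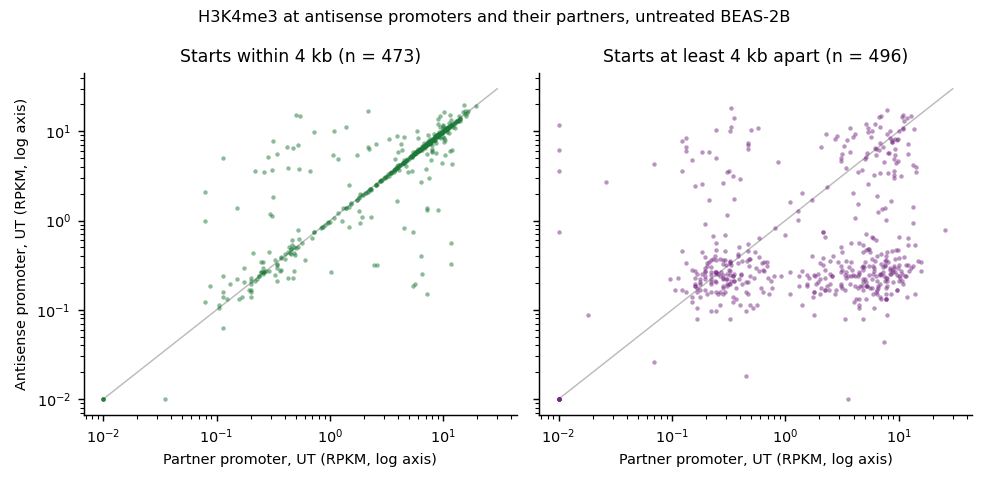
H3K4me3 of each antisense promoter (y, RPKM, log axis) against that of its partner (x, RPKM, log axis) in UT BEAS-2B cells, 1 point per pair, with values at 0 drawn at the lower edge and the line of equal levels in grey. Most of the 473 pairs with starts within 4 kb lie near the line, with exceptions such as the 23 pairs within 500 bases that are more than 2-fold apart, and the 496 pairs farther apart scatter widely, 204 of them with only the partner at 1 RPKM or more.

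The strongest antisense promoters in UT cells were DLG1-AS1, NCBP2-AS2, ALOX12-AS1, CDKN2B-AS1 and TIPARP-AS1. DLG1-AS1, opposite the gene of a scaffold protein of cell junctions, carried 19.7 RPKM in UT (95% Wilson interval 18.9 to 20.5), 16.9 in Ni-E and 13.7 in Ni-W cells. NCBP2-AS2, 146 bases from the gene of the small cap-binding subunit NCBP2, carried 19.4, 18.3 and 10.5 RPKM, the same as NCBP2 itself in UT and Ni-W cells. TIPARP-AS1 carried 17.0, 15.8 and 11.1 RPKM beside 15.5, 14.3 and 8.77 RPKM at TIPARP. These 3 promoters lie next to a partner start that was also strongly marked.

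ALOX12-AS1 and CDKN2B-AS1 differed from their partners. ALOX12-AS1 carried 18.4, 17.8 and 9.15 RPKM, while ALOX12, the platelet-type lipoxygenase gene 16285 bases away, carried 0.335, 0.367 and 0.192 RPKM. The start of RNASEK-C17orf49 lies 83 bases from ALOX12-AS1. CDKN2B-AS1 carried 17.1, 15.7 and 7.22 RPKM, while CDKN2B, the gene of the cell cycle inhibitor p15, carried 7.88, 5.99 and 6.49 RPKM. The start of CDKN2A, the gene of p16 and p14ARF, lies 533 bases from CDKN2B-AS1 and carried 17.6, 15.8 and 8.51 RPKM. Windows around the annotated starts of these 2 members thus overlap that of a start other than the partner that names them. For CDKN2B-AS1 the neighbour had a like level.

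Such neighbours were common among the far members that were marked. Of 101 far members in the RefSeq promoter table with at least 1 RPKM in UT cells, 57 (56.4%) had the start of another gene within 2 kb, set beside 11 of 260 (4.23%) of those under 1 RPKM. The 68 far members with such a neighbour had a median of 6.63 RPKM, and 57 of them (83.8%) reached 1 RPKM. Of 293 far members with no other start within 2 kb, 44 (15.0%) reached 1 RPKM, and of 285 with none within 4 kb, 42 (14.7%) did. Marked promoters with no other start nearby included LRRC75A-AS1 with 14.6 RPKM, a host of small nucleolar RNAs, and MAFG-AS1 with 10.9 RPKM and EPB41L4A-AS1 with 8.71 RPKM.

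A short distance did not always mean an equal level. In 23 of the 315 pairs within 500 bases the levels in UT cells were more than 2-fold apart. TFAP2A-AS1, 73 bases from an annotated start of TFAP2A, carried 16.9 RPKM and TFAP2A, an ectodermal transcription factor gene, 2.18 RPKM. GATA2-AS1 carried 14.9 RPKM and GATA2, at 673 bases, 0.546 RPKM. Both partners have several annotated starts, and the start the authors used is not given in the sources used here, so these gaps cannot be read as differences between neighbouring start sites.

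During exposure few antisense promoters differed. The log2 ratio given here is that of the RPKM after division by the median promoter of each library (1.57, 1.39 and 1.12 RPKM), and the comparison was kept to promoters that averaged 1 RPKM or more across the libraries, 503 members among 13701 promoters. In Ni-E against UT cells 3 members were at least 1.5-fold higher, which was 0.596% beside a background of 0.650% of all promoters, and 1 was at least 1.5-fold lower, 0.199% beside 0.394%. The median log2 ratio was 0.10 for the members and 0.11 for all promoters, and that of the members was -0.08 without scaling and -0.01 with quantile normalization.

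The members past 1.5-fold during exposure were VPS9D1-AS1, TESC-AS1, CCND2-AS1 and HAS2-AS1. VPS9D1-AS1 carried 1.67 RPKM in UT (95% Wilson interval 1.45 to 1.93), 2.41 in Ni-E (2.17 to 2.67) and 0.643 in Ni-W cells (0.515 to 0.804), with log2 ratios to UT of 0.70 and -0.89. Its partner VPS9D1, 9042 bases away, carried 8.61, 8.06 and 3.87 RPKM. TESC-AS1 carried 0.845, 1.15 and 1.14 RPKM and CCND2-AS1, opposite the cyclin D2 gene, 1.09, 1.48 and 0.693 RPKM, with log2 ratios in Ni-E cells of 0.62 for each. None of these 3 was past 1.5-fold without scaling, at 0.52 for VPS9D1-AS1 and 0.44 for each of the others, and with quantile normalization VPS9D1-AS1 alone of the 3 was, at 0.64 beside 0.51 for TESC-AS1 and 0.57 for CCND2-AS1. The counts without scaling were 0 higher and 8 lower, 0.0% and 1.59% of the members beside 0.263% and 1.24% of all promoters. HAS2-AS1 stayed past 1.5-fold, with -1.36 without scaling and -1.21 with quantile normalization. HCFC1-AS1 and ID2-AS1 followed, short of 1.5-fold, with log2 ratios of 0.55 and 0.50.

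HAS2-AS1, opposite the gene of a hyaluronan synthase, was the member with the lowest ratio in Ni-E cells. It carried 1.29 RPKM in UT (95% Wilson interval 1.09 to 1.51), 0.500 in Ni-E (0.399 to 0.627) and 1.92 in Ni-W cells (1.69 to 2.19). HAS2, 1538 bases away, carried 1.79, 0.727 and 2.66 RPKM. The log2 ratios to UT were -1.19 in Ni-E and 1.07 in Ni-W cells for HAS2-AS1, and -1.12 and 1.06 for HAS2. This was the only member of the 503 that was past 1.5-fold lower in Ni-E and past 1.5-fold higher in Ni-W cells. The next lowest ratios in Ni-E cells, short of 1.5-fold, were -0.53 at TMEM220-AS1, -0.51 at LURAP1L-AS1, -0.51 at ZNF793-AS1 and -0.47 at KCNK15-AS1. LURAP1L-AS1 differed from its partner, carrying 1.89, 1.17 and 1.62 RPKM beside 6.48, 6.19 and 2.62 RPKM at LURAP1L, whose start lies 39369 bases away. The other 3 lay within 200 bases of a partner start and moved with it.

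More antisense promoters differed long after exposure. In Ni-W against UT cells 22 of 503 members were at least 1.5-fold higher, 4.37% beside a background of 3.39%, and 87 were at least 1.5-fold lower, 17.3% beside 18.4%. The median log2 ratio was -0.30 for the members and -0.33 for all promoters. Against Ni-E cells 23 were higher, 4.57% beside 3.06%, and 151 lower, beside a background of 30.7%, and both comparisons share the Ni-W library. The shares and medians of the members lay near those of all promoters. By position, 14 of 371 near members were higher and 56 lower, and 8 of 122 far members were higher and 27 lower.

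The balance of higher and lower promoters depended on the scaling. The share of the library's depth that fell in promoter windows was 37.6% in UT, 36.0% in Ni-E and 22.9% in Ni-W cells, and its part in the result was not tested. Without scaling the RPKM, 6 members were at least 1.5-fold higher and 350 lower in Ni-W against UT cells, 1.19% and 69.6% beside 1.1% and 71.9% of all promoters. With quantile normalization 49 were higher and 29 lower, 9.74% and 5.77% beside 7.25% and 4.66%. The median log2 ratio over all promoters compared was -0.33 after scaling to the median, -0.81 without scaling and -0.07 with quantile normalization. That of the members was -0.30, -0.78 and -0.04. All 22 higher and all 87 lower members kept their direction with quantile normalization. Leaving out the scaling lowers every Ni-W to UT ratio by the same amount, which is less than 1.5-fold. Without scaling no member past 1.5-fold could therefore change direction, and the 87 lower ones had to stay past it. The 22 remained past 1.5-fold with quantile normalization and 6 of them without scaling, and the 87 remained past it without scaling and 28 of them with quantile normalization.

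The highest ratios in Ni-W cells belonged to DIO2-AS1, HIF1A-AS2, ADAMTS9-AS2, SOX21-AS1 and EPB41L4A-AS2. DIO2-AS1, opposite the gene of an enzyme that activates thyroid hormone, carried 1.39 RPKM in UT (95% Wilson interval 1.19 to 1.63), 1.67 in Ni-E (1.48 to 1.89) and 3.09 in Ni-W cells (2.79 to 3.42). The log2 ratio of Ni-W to UT was 1.64, a 3.11-fold difference. DIO2, with an annotated start 85 bases from that of DIO2-AS1, was listed at 0.150, 0.147 and 0.259 RPKM, from 17, 22 and 31 reads. That is below the 1 RPKM needed for the comparison, and its log2 ratio of Ni-W to UT had the same sign, at 1.28. Windows around starts 85 bases apart would hold nearly the same reads, and the start the authors used for DIO2 is not given in the sources used here. The gap between DIO2-AS1 and DIO2 thus cannot be read as a difference between neighbouring start sites.

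HIF1A-AS2 lies beyond the 3′ end of HIF1A, the gene of the oxygen-regulated subunit of hypoxia-inducible factor, with 51377 bases between the starts. It carried 6.69 RPKM in UT (95% Wilson interval 6.23 to 7.19), 5.77 in Ni-E (5.40 to 6.16) and 14.7 in Ni-W cells (14 to 15.4). The Ni-W interval lay above both others, and the log2 ratio to UT was 1.62, or 3.07-fold. The HIF1A promoter carried 7.27, 6.95 and 5.13 RPKM, with a log2 ratio of -0.02, and HIF1A-AS1, 310 bases from the HIF1A start, carried 7.77, 7.42 and 6.76 RPKM, with 0.29. So the member at the far end of the gene differed, and those at the HIF1A start were within 1.5-fold. The HIF1A-AS1 promoter, not printed here, has a GC content of 69.3% and 30 CpG, against 34.7% and none in the HIF1A-AS2 promoter printed above. Another start, that of HIF1A-AS3, lies 2008 bases from that of HIF1A-AS2.

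EPB41L4A has members at both ends too. EPB41L4A-AS2, 306 bases from the start of EPB41L4A, a membrane skeleton gene, carried 3.93, 3.15 and 6.22 RPKM, and EPB41L4A 3.95, 3.16 and 6.29 RPKM. The log2 ratios of Ni-W to UT were 1.15 and 1.16. EPB41L4A-AS1, 258751 bases away, carried 8.71, 9.20 and 5.33 RPKM, with a ratio of -0.22. Of 8 partners with at least 2 members compared, the median gap between the members' ratios was 0.23, and EPB41L4A and HIF1A were the 2 with a gap over 1.

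ADAMTS9-AS2 carried 1.11, 1.18 and 2.31 RPKM and ADAMTS9, a matrix protease gene 2809 bases away, 2.32, 2.26 and 3.82 RPKM, with log2 ratios of Ni-W to UT of 1.55 and 1.21. SOX21-AS1 carried 2.03, 2.02 and 3.42 RPKM, with a ratio of 1.23, and SOX21, a transcription factor gene of the nervous system, 2.08, 2.11 and 3.45 RPKM, with 1.22. Their RefSeq promoters of 300 bases share 270 bases. In both pairs the member and the partner were at UT levels in Ni-E cells and higher in Ni-W cells.

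Among the lowest ratios in Ni-W cells were those of KIRREL3-AS3, VLDLR-AS1, STX17-AS1 and DNAJB5-AS1. KIRREL3-AS3 carried 2.99 RPKM in UT (95% Wilson interval 2.69 to 3.33), 2.59 in Ni-E (2.34 to 2.86) and 0.885 in Ni-W cells (0.732 to 1.07), a log2 ratio of -1.27. KIRREL3, the gene of a synaptic adhesion molecule, carried 7.5, 7.51 and 3.10 RPKM, with -0.79. VLDLR-AS1 carried 9.79, 8.04 and 3.14 RPKM, with -1.15, and VLDLR, a lipoprotein receptor gene, 9.55, 7.77 and 3.12 RPKM. STX17-AS1 carried 6.33, 5.16 and 2.05 RPKM, with -1.14, and DNAJB5-AS1 3.40, 2.93 and 1.12 RPKM, with -1.12, each beside a partner with nearly the same values. In all 4 the Ni-E level was much closer to UT than to Ni-W.

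**Figure D2:**
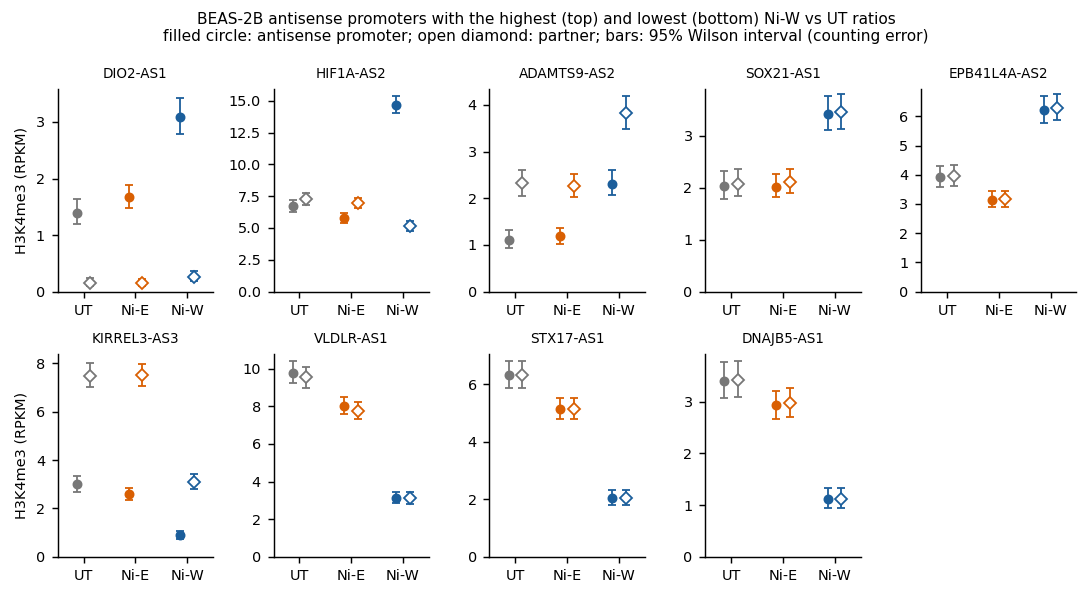
H3K4me3 (RPKM, y axis from 0) in UT, Ni-E and Ni-W BEAS-2B cells at the 5 antisense promoters with the highest Ni-W to UT ratios (top row) and at 4 of those with the lowest (bottom row), filled circles, and at their partners, open diamonds, with 95% Wilson intervals for counting error. HIF1A-AS2 reaches 14.7 RPKM in Ni-W cells while HIF1A stands at 5.13 RPKM, and DIO2-AS1 reaches 3.09 RPKM while DIO2 stands at 0.259 RPKM. The start used for DIO2 is not given, and an annotated one lies 85 bases from DIO2-AS1, so that gap cannot be read as one between neighbouring starts.

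VLDLR-AS1, STX17-AS1 and DNAJB5-AS1 all lie on chromosome 9, and SOX21-AS1 on chromosome 13. On chromosome 13, 5 of 22 members were at least 1.5-fold higher in Ni-W than in UT cells and none lower, with a median log2 ratio of 0.24. All 270 promoters compared there had a median of 0.20, with 18.9% higher and 0.0% lower. On chromosome 9, 9 of 23 members were lower and none higher, with a median of -0.33 beside -0.22 for all 587 promoters, of which 21.6% were lower. On chromosome 15 the medians were 0.08 for 18 members and 0.07 for all 421 promoters. On chromosomes 13 and 15 the medians of the members were thus close to those of all promoters, whereas on chromosome 18 they were -0.42 for 7 members and -0.17 for all 202 promoters. The copy number of these chromosomes in the Ni-W population was not tested.

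Pairs with nearby annotated starts, where windows around those starts overlap, had nearly the same ratios. Across 347 pairs with starts within 4 kb and both promoters compared, the log2 ratios of member and partner correlated with a Spearman rho of 0.91 (Pearson r 0.93) in Ni-E against UT cells and 0.94 (0.96) in Ni-W against UT cells, with the same sign in 93.4% and 95.1% of pairs. Across the 86 pairs with starts at least 4 kb apart rho was 0.15 (r 0.11) in Ni-E and 0.48 (0.45) in Ni-W cells, with the same sign in 65.1% and 82.6%. Most ratios shared a sign to begin with, so unrelated promoters would often agree too. Of the far members and of all partners compared, 71.3% and 75.5% were above 0 in Ni-E cells and 21.3% and 23.2% in Ni-W cells. The same-sign share in Ni-W cells was 76.7% with quantile normalization and 93.0% without scaling. These correlations run across pairs of 1 library comparison, which share depth, scaling and chromosome, and are descriptions. In Ni-W against UT cells the far pairs had 10 with both promoters lower, 1 with both higher, 16 with only the member past 1.5-fold and 10 with only the partner. With quantile normalization these counts were 0, 1, 11 and 7, and without scaling 57, 0, 8 and 9, with 2 pairs past 1.5-fold in opposite directions.

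**Figure D3:**
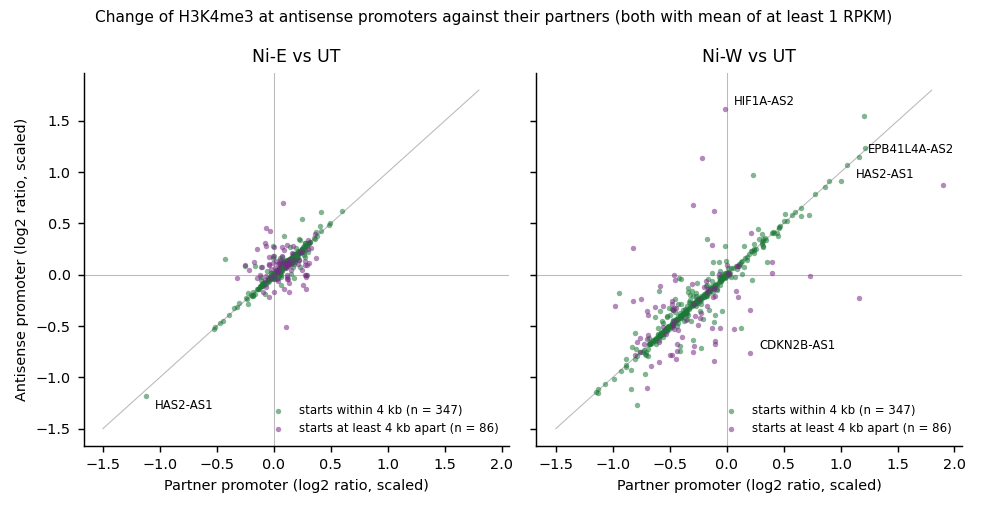
Log2 ratio (scaled to the library median) of each antisense promoter (y) against that of its partner (x) for Ni-E vs UT (left) and Ni-W vs UT (right), both promoters averaging 1 RPKM or more, with 347 pairs within 4 kb in green, 86 farther apart in purple and the line of equal ratios in grey. The spread is wider in Ni-W, the green pairs follow the line, and HIF1A-AS2 (1.62) and CDKN2B-AS1 (-0.76) stand away from it.

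Some far pairs had unequal ratios after scaling to the median. At the INK4 locus the CDKN2B-AS1 log2 ratio of Ni-W to UT was -0.76 and that of CDKN2A -0.56, while that of CDKN2B was 0.21. SOX9-AS1 carried 1.26, 1.19 and 1.39 RPKM, with a ratio of 0.63, and SOX9, a cartilage and airway progenitor factor gene 5004 bases away, 6.60, 7.06 and 4.37 RPKM, with -0.11. MCM3AP-AS1 carried 10.6, 9.26 and 4.74 RPKM, with -0.67, and MCM3AP 11, 10.5 and 7.32 RPKM, with -0.10. MEIS1-AS2 carried 4.66, 4.05 and 2.12 RPKM, with -0.65, and MEIS1 9.92, 10.6 and 6.59 RPKM, with -0.10. The gap between member and partner is the same with and without scaling to the median, but which of them passes 1.5-fold is not. SOX9-AS1 had 0.14 without scaling, and with quantile normalization CDKN2B-AS1, MCM3AP-AS1 and MEIS1-AS2 had -0.55, -0.41 and -0.35, short of 1.5-fold.

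By gene lists, no listed member passed 1.5-fold in Ni-E against UT cells. Of the antisense genes of the HOX clusters, which set positional identity, 4 of the 11 in the files were compared, and in Ni-W cells 2 were lower than in UT, HOXB-AS1 (-0.99) and HOXC-AS2 (-0.66), and 0 higher. Of 22 antisense genes of developmental regulators compared, 3 were higher, SOX21-AS1 (1.23), ZFPM2-AS1 (0.88) and SOX9-AS1 (0.63). In that list 5 were lower, WT1-AS (-0.94), LBX2-AS1 (-0.90), SIX3-AS1 (-0.67), MEIS1-AS2 (-0.65) and GATA3-AS1 (-0.61). The background over all promoters was 3.39% higher and 18.4% lower. The median log2 ratio was -0.61 for the HOX members and -0.19 for the developmental ones, beside -0.33 for all promoters.

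Among 9 antisense genes of oxygen response compared, HIF1A-AS2 was higher and RAB11B-AS1, opposite a recycling endosome GTPase gene, was lower (-0.63). The others were within 1.5-fold, with log2 ratios of 0.29 at HIF1A-AS1, 0.07 at JMJD1C-AS1, -0.21 at LOXL1-AS1, -0.21 at SLC16A1-AS1, -0.48 at SLC2A1-AS1, -0.49 at KDM4A-AS1 and -0.54 at ENO1-AS1. The last 4 lie opposite genes of a lactate carrier, a glucose carrier, a histone demethylase and a glycolytic enzyme. Among 5 cell cycle and growth antisense genes CDKN2B-AS1 was lower, and TP73-AS1 (-0.14), TMPO-AS1 (-0.21), SMAD5-AS1 (-0.06) and PTENP1-AS (-0.27) were within 1.5-fold. CDKN2A-AS1, RBM5-AS1 and EGFR-AS1 were under 1 RPKM on average. Of 23 widely expressed antisense RNAs, 2 were higher, ARRDC3-AS1 (0.61) and GABPB1-AS1 (0.59), and 3 lower, LRRC75A-AS1 (-0.78), SBF2-AS1 (-0.75) and MCM3AP-AS1 (-0.67). The medians of these lists were -0.21, -0.21 and -0.36. Of the 18 listed members past 1.5-fold in the 5 lists, all kept their direction with quantile normalization, and without scaling none could change it. Not all of them stayed past 1.5-fold. Without scaling SOX9-AS1, ZFPM2-AS1, GABPB1-AS1 and ARRDC3-AS1 were short of it, with log2 ratios between 0.10 and 0.39. With quantile normalization GATA3-AS1, MEIS1-AS2, RAB11B-AS1, CDKN2B-AS1, SBF2-AS1, MCM3AP-AS1 and LRRC75A-AS1 were short of it, with ratios between -0.58 and -0.33.

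In RT4 cells few antisense RNAs were abundant. The median of the 1162 members was 0.0792 TPM over the 6 libraries, 305 (26.2%) had a mean of at least 1 TPM, 68 at least 10 TPM, and 413 were listed at 0 in every library. Of all genes 46.5% had at least 1 TPM, of the partners 62.4% and of LINC genes 6.5%. Members whose exons share bases with partner exons reached 1 TPM in 34.8% of cases and members sharing none in 12.7%. The library kit does not mark strand, so in shared exons the reads of the member and the partner cannot be told apart, and 663 of the 1103 pairs with annotated exons share some. The summed level of all members was between 3170 and 3442 TPM in the 6 libraries.

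PCNA-AS1 and KRT7-AS led the members, each opposite a very abundant gene. PCNA-AS1 had 384 and 276 TPM in the UT libraries, 531 and 384 in Ni-E and 395 and 249 in Ni-W, and PCNA, the sliding clamp of DNA replication, had 374 and 367, 534 and 568, and 438 and 382 TPM. KRT7-AS had 244 and 299, 283 and 317, and 244 and 352 TPM, where KRT7 had 5350 TPM on average. MIF-AS1, opposite a cytokine gene, had 129 and 173, 186 and 225, and 144 and 228 TPM. SPINT1-AS1, opposite a protease inhibitor gene, had 82.1 and 98.1, 67.3 and 75.4, and 75 and 100.6 TPM, and FGD5-AS1 69.9 and 53.5, 69.1 and 58, and 94.1 and 56.3 TPM. FGD5 was listed at 0 in every library, so no reads were assigned to it, and whether any reads assigned to FGD5-AS1 came from FGD5 was not tested. None of these 5 passed 1.5-fold in any of the 3 contrasts.

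Tests were run on 354 members among 14502 genes that passed the expression filter, with edgeR's quasi-likelihood test, and a member counted as changed at 1.5-fold or more with a Benjamini-Hochberg adjusted p under 0.05. Without regard to replicate number 1 member fell in Ni-E against UT cells and 0 rose, 0.282% of the members beside a background of 2.17% of all genes. In Ni-W against UT cells 0 members were called beside a background of 0.600%, and in Ni-W against Ni-E cells 0 beside 0.0%. At an unadjusted p under 0.05 there were 34, 27 and 12 members in the 3 contrasts, which was 9.6%, 7.63% and 3.39% of them beside 12.2%, 9.12% and 5.57% of all genes. DESeq2 called 2 higher and 3 lower, 2 higher and 1 lower, and 0 higher and 1 lower, beside backgrounds of 3.76%, 2.25% and 0.714% of all genes.

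Libraries with the same replicate number deviated together in every pair of conditions, and those numbered 1 held 17075833 to 18280556 counts against 25721265 to 27736454 in those numbered 2. With the replicate number as a block, 17 members rose and 15 fell in Ni-E against UT cells, together 9.04% beside a background of 12.6% of all genes, of which 7.64% rose and 5.0% fell. In Ni-W against UT cells 9 rose and 11 fell, 5.65% beside 8.57%, of which 5.79% rose and 2.78% fell. In Ni-W against Ni-E cells 1 rose and 3 fell, 1.13% beside 4.52%, of which 2.72% rose and 1.8% fell. In each contrast the share of members called was below that of all genes. The counts moved with single libraries. In Ni-E against UT cells there were 7 higher and 7 lower without UT replicate 1, 9 and 5 without UT replicate 2, and 23 lower without Ni-W replicate 1 or Ni-W replicate 2, while DESeq2 with the block gave 7 and 10. The Ni-W against UT counts were 4 and 4 without UT replicate 1, 5 and 3 without UT replicate 2, 18 and 19 without Ni-E replicate 1, 18 and 17 without Ni-E replicate 2, 14 and 11 without Ni-W replicate 1, 14 and 21 without Ni-W replicate 2, and 4 and 5 with DESeq2. The Ni-W against Ni-E counts were 6 and 7 without Ni-W replicate 1, 3 and 17 without Ni-W replicate 2, 2 and 3 without Ni-E replicate 1 and 1 and 11 without Ni-E replicate 2. The values that follow are from the blocked fit unless stated, and the members named from it were those with the largest fold changes among called members averaging 1 CPM or more, picked after the values had been seen.

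SLC5A4-AS1 was the member called both with and without the block. It had 2.14 and 1.23 TPM in the UT libraries, 0.26 and 0.21 in Ni-E and 0.88 and 0.40 in Ni-W. All UT values lay above all Ni-W values, and those above all Ni-E values. The log2 fold change in Ni-E cells was -2.80 ± 0.301 (SE; edgeR adjusted p = 0.000119) with the block and -2.83 ± 0.415 (adjusted p = 0.0376) without it. Without the block the call was lost when any 1 UT or Ni-E library was left out, at edgeR adjusted p between 0.114 and 0.322. In Ni-W cells it was -1.49 (adjusted p = 0.00424, and 0.226 without the block). SLC5A4 had at most 0.1 TPM in any library. Over 209 bases the promoter of SLC5A4-AS1 lies in exons of RFPL2 on the other strand.

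Of the 8 members named as higher in Ni-E cells, 7 lay opposite genes that rose as well, and DARS did not pass. Of all 752 partners tested, 10.2% rose in that contrast, and of all genes 7.64%. ACTA2-AS1 had 0.71 and 1.36 TPM in UT, 3.43 and 4.27 in Ni-E and 3.21 and 4.85 in Ni-W, and ACTA2, the smooth muscle actin gene, 6.61 and 7.48, 36.3 and 37, and 41.2 and 34.2 TPM. The log2 fold change of ACTA2-AS1 was 1.86 ± 0.278 (edgeR adjusted p = 0.00107) in Ni-E and 1.90 ± 0.278 (0.00137) in Ni-W, with that of ACTA2 at 2.35 and 2.34. Of the exonic bases of ACTA2-AS1 51.5% are shared with ACTA2.

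MFSD4A-AS1 had 0.24 and 0.18, 0.92 and 0.85, and 0.80 and 1.06 TPM, with log2 fold changes of 1.87 ± 0.407 (edgeR adjusted p = 0.00972) and 2.01 ± 0.403 (0.00889). SERTAD4-AS1 had 1.58 and 3.02, 6.09 and 6.70, and 5.18 and 9.58 TPM, with 1.40 (adjusted p = 0.0409) and 1.62 (0.0267). SLCO4A1-AS1, opposite an organic anion carrier gene, had 1.23 and 1.83, 4.17 and 3.95, and 5.10 and 3.49 TPM, with 1.33 (adjusted p = 0.0142) and 1.34 (0.0193). Their partners MFSD4A, SERTAD4 and SLCO4A1 had 1.51, 1.79 and 1.32 in Ni-E cells. In these 3 members the UT values lay below all others, and the Ni-W values overlapped the Ni-E values.

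DARS-AS1 and P4HA2-AS1 had their highest values in Ni-E cells. DARS-AS1, opposite an aspartyl-tRNA synthetase gene, had 1.36 and 1.47, 5.97 and 4.5, and 2.14 and 2.32 TPM, with log2 fold changes to UT of 1.85 ± 0.374 (edgeR adjusted p = 0.00663) and 0.61 (0.406). DARS had 0.34 (adjusted p = 0.0837) in Ni-E cells. P4HA2-AS1 had 1.24 and 1.78, 5.29 and 5.22, and 3.23 and 2.21 TPM, with 1.71 ± 0.369 (0.00928) and 0.69 (0.330). P4HA2, a collagen prolyl hydroxylase gene, had 12.6 and 10.6, 30.8 and 30.7, and 25.7 and 23.8 TPM, with 1.45 and 1.13, and 65.3% of the exonic bases of P4HA2-AS1 lie in its exons. The direct contrast of Ni-W with Ni-E cells did not pass for either member (edgeR adjusted p = 0.0723 and 0.130).

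PAX8-AS1 had 1.72 and 0.20 TPM in UT, 4.87 and 1.22 in Ni-E and 5.33 and 0.69 in Ni-W cells. The groups overlap, and the level was higher within each replicate number, with log2 fold changes of 1.78 (edgeR adjusted p = 0.00491, and 0.796 without the block) and 1.51 (0.0182), and PAX8 had 1.36 and 1.17. HAS2-AS1 had 0.67 and 0.44, 1.44 and 1.36, and 2.23 and 0.80 TPM, with 1.38 (adjusted p = 0.0382) and 1.26 (0.0745). HAS2 had log2 fold changes of 2.54 and 2.37. In BEAS-2B cells the H3K4me3 of HAS2-AS1 and HAS2 had been lower in Ni-E than in UT cells, a different quantity in a different line.

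**Figure D4:**
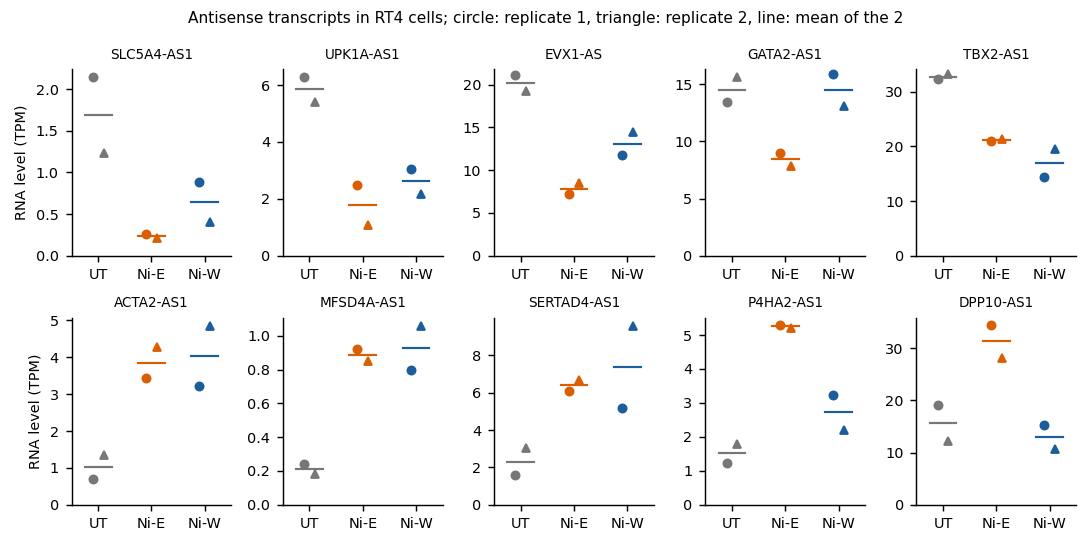
RNA level (TPM, y axis from 0) of 10 antisense genes in RT4 cells by condition, with replicate 1 as a circle, replicate 2 as a triangle and the mean of the 2 as a line. The top row holds members lower in Ni-E than in UT cells, such as EVX1-AS with 21.1 and 19.2 against 7.20 and 8.46 TPM, and the bottom row members higher in Ni-E cells, of which DPP10-AS1 is back at 15.2 and 10.7 TPM in Ni-W cells.

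The members that fell in Ni-E cells included UPK1A-AS1, EVX1-AS and FZD10-AS1. UPK1A-AS1, opposite the uroplakin gene of the bladder surface plaque, had 6.29 and 5.40 TPM in UT, 2.49 and 1.08 in Ni-E and 3.06 and 2.17 in Ni-W cells. The log2 fold change was -1.84 ± 0.384 (edgeR adjusted p = 0.00784) in Ni-E and -1.24 (0.0522) in Ni-W. UPK1A itself had 70.6 and 92.5, 16.1 and 18.5, and 39.6 and 44.4 TPM, with -2.26 and -1.01. EVX1-AS, opposite a homeobox gene, had 21.1 and 19.2, 7.20 and 8.46, and 11.8 and 14.4 TPM, with -1.38 ± 0.273 (adjusted p = 0.00574) and -0.65 (0.142), and EVX1 had -0.94 in Ni-E cells. FZD10-AS1, opposite a Wnt receptor gene, had 2.35 and 2.20, 1.01 and 0.87, and 1.54 and 1.60 TPM, with -1.30 (0.00420) in Ni-E. The means of all 3 were lowest in Ni-E cells, but the contrast of Ni-W with Ni-E cells did not pass for any of them (edgeR adjusted p = 0.553, 0.199 and 0.142), and for UPK1A-AS1 these groups overlap.

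H1FX-AS1 and HECTD2-AS1 fell while their partners did not pass the test. H1FX-AS1 had 1.46 and 1.47, 0.25 and 0.59, and 0.87 and 0.66 TPM, with -1.71 (edgeR adjusted p = 0.0158) in Ni-E cells, and H1FX, a linker histone gene, had -0.08 (0.736). HECTD2-AS1 had 42.6 and 48.9, 23.2 and 30.9, and 32.8 and 41.2 TPM, with -0.79 ± 0.143 (adjusted p = 0.00355), and HECTD2, at under 1 TPM, had 0.01 (0.987). LOXL1-AS1 had 9.90 and 8.88, 5.53 and 5.49, and 7.23 and 5.32 TPM, with -0.74 (adjusted p = 0.0125) in Ni-E and -0.65 (0.0319) in Ni-W cells, and LOXL1, a lysyl oxidase gene, had 0.10 (0.664) in Ni-E. SLC44A3-AS1 fell by 0.84 on the log2 scale (edgeR adjusted p = 0.0151).

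In Ni-W against UT cells the members with the largest changes beyond those above were TNFRSF14-AS1, SBF2-AS1 and HOXC13-AS upward. TNFRSF14-AS1 had 4.76 and 4.32, 6.47 and 6.47, and 9.36 and 8.33 TPM, with 0.91 (edgeR adjusted p = 0.00185). SBF2-AS1 had 6.67 and 6.24, 11.5 and 11.8, and 12.9 and 11.4 TPM, with 0.86 ± 0.146 (0.00342) in Ni-W and 0.85 ± 0.146 (0.00255) in Ni-E cells, while SBF2 had 0.23 (0.318) and 0.05 (0.847). HOXC13-AS had 5.05 and 5.97, 8.93 and 8.24, and 9.28 and 10.8 TPM, with 0.82 (0.0312). In each the UT libraries were below the other 4.

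Downward in Ni-W cells were ATP2B1-AS1, ZNF793-AS1, TBX2-AS1, FBXL19-AS1, TMEM147-AS1 and EPB41L4A-AS1. TBX2-AS1, next to a T-box transcription factor gene, had 32.4 and 33.1, 21.0 and 21.3, and 14.3 and 19.5 TPM, with -0.97 ± 0.196 (edgeR adjusted p = 0.00914) in Ni-W and -0.67 (0.0354) in Ni-E cells, and shares no exonic base with TBX2, which had -0.59 and -0.46. EPB41L4A-AS1 had 49.2 and 63.3, 38.3 and 53.6, and 29.8 and 39.6 TPM, with -0.75 ± 0.127 (0.00333) in Ni-W cells, while EPB41L4A had 0.08 (0.728). ZNF793-AS1 had 7.31 and 6.45, 3.81 and 4.23, and 3.89 and 3.13 TPM, with -1.04 (0.0390). The log2 fold changes of the others were -1.58 at ATP2B1-AS1, -0.86 at FBXL19-AS1 and -0.77 at TMEM147-AS1. For TBX2-AS1, ZNF793-AS1 and TMEM147-AS1 the 2 UT libraries were the highest of the 6.

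How far these calls rest on single libraries differed between members. Of the 16 members named for Ni-E against UT cells, 5 stayed called with the block whichever 1 of the 6 libraries was left out, and with DESeq2: ACTA2-AS1, DARS-AS1, FZD10-AS1, PAX8-AS1 and SLC5A4-AS1. Leaving out UT replicate 1 lost 8 of the 16 and UT replicate 2 lost 7. Of the 16 for Ni-W against UT cells, ACTA2-AS1 and SLC5A4-AS1 stayed called in every such fit, and leaving out UT replicate 1 or UT replicate 2 lost 11 and 12. UPK1A-AS1, for instance, had an edgeR adjusted p of 0.0945 without UT replicate 2 and 0.0881 without Ni-E replicate 2, and TBX2-AS1 had 0.0882 without UT replicate 1.

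Partners called in the same direction as a called member were counted next. Of 31 members called in Ni-E against UT cells with a tested partner, 19 had a partner called in the same direction. The opposite direction was found in 0 of them. Exonic bases are shared in 15 of the 19 pairs, beside 252 of all 326 tested pairs. The same and opposite counts were 9 and 0 of 19 in Ni-W against UT cells. They were 2 and 0 of 4 in Ni-W against Ni-E cells. As a background, with the block 40 of all 326 tested pairs had a partner called in either direction in Ni-E against UT cells. That background was 29 pairs in Ni-W against UT cells and 13 in Ni-W against Ni-E cells. Across all 326 tested pairs the log2 fold changes without the block correlated with a Spearman rho of 0.46 (Pearson r 0.58) in Ni-E against UT cells and 0.37 (0.52) in Ni-W against UT cells, with the same sign in 65.0% and 62.9% of pairs. In Ni-E against UT cells rho was 0.45 for the 252 pairs that share exonic bases and 0.44 for the 61 pairs that share none. The same split gave 0.40 and 0.23 in Ni-W against UT cells and 0.44 and 0.16 in Ni-W against Ni-E cells, with the same sign in 65.5% and 49.2% in the latter. For the 16 pairs with no shared exonic base and starts at least 4 kb apart rho in Ni-E against UT cells was 0.09, with the same sign in 43.8%. For the 32 pairs with bodies that do not overlap rho was 0.49 in Ni-E against UT, 0.10 in Ni-W against UT and 0.38 in Ni-W against Ni-E cells. These values are across pairs measured in the same libraries and are descriptions.

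**Figure D5:**
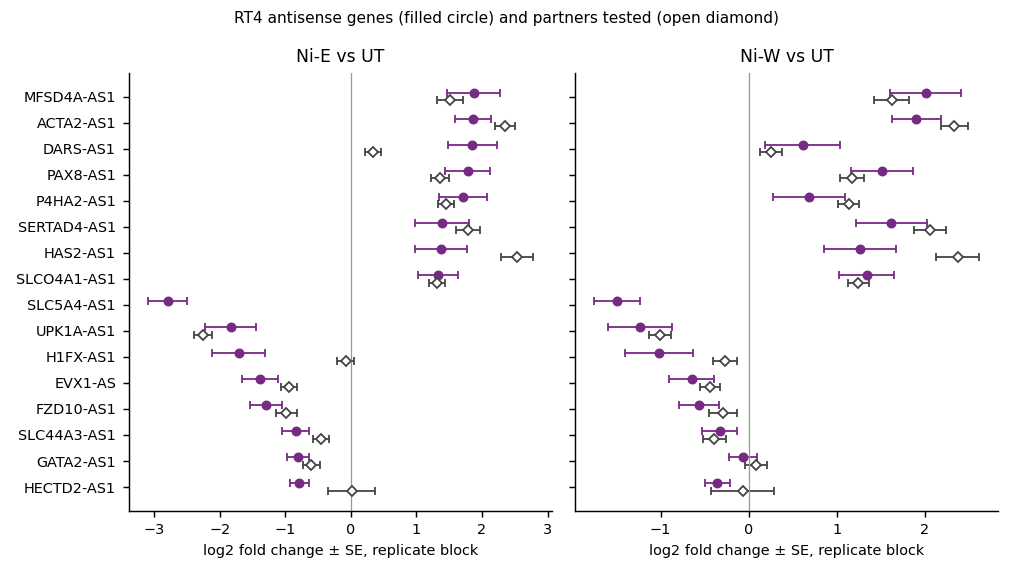
Log2 fold change ± SE from edgeR with the replicate block for 16 antisense genes called in Ni-E against UT RT4 cells (filled circles) and for their tested partners (open diamonds), in Ni-E vs UT (left) and Ni-W vs UT (right). Member and partner lie on the same side of 0 for most pairs, while DARS, H1FX and HECTD2 lie near 0 in Ni-E cells (0.34, -0.08 and 0.01) beside members at 1.85, -1.71 and -0.79.

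By list, without the block 0 members were called in RT4 cells in any of the 5 lists and 3 contrasts, over 7 HOX, 12 developmental, 6 oxygen response, 3 cell cycle and 17 widely expressed members tested. With the block, PAX8-AS1 rose and GATA2-AS1 and SOX21-AS1 fell among the developmental members in Ni-E cells, P4HA2-AS1 rose and LOXL1-AS1 fell among the oxygen response members, and SBF2-AS1 rose among the widely expressed ones. Over all genes 12.6% were called in that contrast with the block and 2.17% without it, and 8.57% and 0.600% in Ni-W against UT cells. For Ni-W against Ni-E cells these shares were 4.52% and 0.0%. Listed members HOXC13-AS, PAX8-AS1 and SBF2-AS1 rose in Ni-W against UT cells and SOX21-AS1, LOXL1-AS1 and EPB41L4A-AS1 fell, and in Ni-W against Ni-E cells GATA2-AS1 rose. SOX21-AS1 had 1.38 and 1.12 TPM in UT, 0.32 and 0.19 in Ni-E and 0.38 and 0.11 in Ni-W cells, with log2 fold changes of -2.32 ± 0.425 (edgeR adjusted p = 0.00365) and -2.61 (0.00353). SOX21 had -2.42 in Ni-E cells. HIF1A-AS2, the member that stood out in BEAS-2B chromatin, had 14.4 and 13.7, 15.3 and 19.8, and 14.6 and 15.9 TPM in RT4 cells, with 0.31 (adjusted p = 0.199) and 0.08 (0.799), and CDKN2B-AS1 was listed at 0 in all 6 libraries.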

How the data were processed

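H3K4me3 ChIP-Seq of BEAS-2B cells and RNA-Seq of RT4 cells were analysed from the deposited tables. Reads for H3K4me3 were aligned by the authors to hg38 with BWA, 1 copy of redundant reads was kept, and the deposited RPKM values give the reads within 2 kb on either side of each start. No peaks were called. All RPKM values were whole multiples of 1 read (100.0%, within 0.1 read and the rounding of the file), from which reads were recovered. Methods describe 2 ChIP replicates, while the files used hold 1 library per condition, and input libraries were not analysed here. The labels give both 2 weeks and more than 6 months for nickel-free growth, and the longer time is that of BEAS-2B. RNA-Seq tables hold RSEM estimated counts, TPM and FPKM deposited by the authors. The methods describe RNA-Seq alignment to hg19 with STAR and a RefSeq annotation, and quantification as RPKM, while the submitters' notes name STAR, SAMtools, bedtools, DESeq2, hg38 and GRCh38 with no role. Which build the RSEM tables rest on is not given in the sources used here. FPKM was not used.

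Estimated counts were rounded and tested with edgeR 4.0.16 in R 4.3.3 (TMM factors, filterByExpr, 1 model of the 3 conditions), with DESeq2 1.42.0 and limma 3.58.1 on log2(TPM + 1) as alternatives. Totals were 18065667 and 25721265 counts in UT, 18280556 and 27736454 in Ni-E and 17075833 and 26543400 in Ni-W libraries. Wilson intervals at 95% and a floor of 3 reads cover counting error only. Deviations of same-numbered libraries from the group means correlated at 0.794 (UT and Ni-E), 0.878 (UT and Ni-W) and 0.791 (Ni-E and Ni-W). The numbers, read from the titles, were therefore taken to pair the libraries. The test as planned had no block, and the block was added to it. Counts are given with and without the block, and values of most named RT4 members with the block only. Without it edgeR called 1 member over the 3 contrasts, SLC5A4-AS1. Named members were the 5 highest in each line, the 5 highest and 5 lowest ratios per BEAS-2B comparison with UT, up to 8 called members per direction and RT4 contrast that averaged 1 CPM or more, and listed members, of which 1 is not reported here. Members and lists were chosen with earlier results of these data known. Starts were taken from RefSeq and otherwise GENCODE. Scripts were tested on simulated RT4 counts with 200 genes changed 3-fold in Ni-E against UT. Without the block the test recovered 69 of them and called 2 others, so few calls without the block do not show an absence of change. With a simulated replicate shift and the block, 196 were recovered and 13 others called. In simulated H3K4me3 data 200 of 200 promoters changed 3-fold were recovered.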

Additional observations from a re-analysis of the deposited data

Results flagged for a closer look

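Between Ni-W and Ni-E RT4 cells, 4 members differed with the replicate block, 1.13% of those tested beside 4.52% of all genes. Their effects against UT thus differed between the 2 times. DPP10-AS1, opposite the gene of a potassium channel subunit, had 19.1 and 12.3 TPM in UT, 34.5 and 28.1 in Ni-E and 15.2 and 10.7 in Ni-W cells. Its log2 fold change was 1.00 ± 0.182 in Ni-E against UT cells (edgeR adjusted p = 0.00349), -0.32 in Ni-W against UT cells (0.345) and -1.32 ± 0.187 between Ni-W and Ni-E cells (0.00254). DPP10 had 6.15 and 4.91, 13.1 and 12.1, and 6.27 and 3.22 TPM, with 1.21, -0.31 and -1.52, and shares no exonic base with DPP10-AS1. The DPP10-AS1 difference was called with DESeq2 and without each library in turn, with the block in place.

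GATA2-AS1 went the other way, with 13.4 and 15.6 TPM in UT, 9.03 and 7.88 in Ni-E and 15.9 and 13.1 in Ni-W cells. The log2 fold change was 0.739 between Ni-W and Ni-E cells (edgeR adjusted p = 0.0277), and 0.0575 was the adjusted p without Ni-E replicate 2. GATA2, a transcription factor gene, had 31.6 and 26.2, 20.7 and 17.5, and 32.9 and 30.3 TPM. Against UT the change of GATA2-AS1 was -0.81 ± 0.166 in Ni-E cells (adjusted p = 0.00710, and 0.353 without UT replicate 2) and -0.07 in Ni-W cells (0.829).

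IDI2-AS1 had 12.5 and 8.18, 16.1 and 10.1, and 9.16 and 5.67 TPM, with -0.834 between Ni-W and Ni-E cells (edgeR adjusted p = 0.0443, and 0.206 with DESeq2). That call was also lost without UT replicate 1 (edgeR adjusted p = 0.0703), UT replicate 2 (0.0660), Ni-E replicate 1 (0.109) or Ni-W replicate 1 (0.0728). PKIA-AS1 had 0.55 and 0.74, 1.00 and 1.37, and 0.38 and 0.39 TPM, with -1.64 (edgeR adjusted p = 0.0459). That call was lost with DESeq2, which with the block called only 1 member lower in this contrast, DPP10-AS1. Without the block none of the 4 was called, with edgeR adjusted p of 0.272 for DPP10-AS1, 0.642 for GATA2-AS1, 0.788 for IDI2-AS1 and 0.579 for PKIA-AS1.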

How the results depend on the processing

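No value of a named member that was followed under the alternatives changed direction, but medians and the balance of counts did. For BEAS-2B members past 1.5-fold a change of direction was not possible without scaling, which moves every ratio of a comparison by the same amount, less than 1.5-fold. Listed members within 1.5-fold in BEAS-2B cells were not followed in this way. Of these, HIF1A-AS1 had a ratio of 0.29 in Ni-W vs UT after scaling, but a lower RPKM in Ni-W than in UT cells without it. The median log2 ratio of the members in Ni-E vs UT went from 0.10 to -0.08 without scaling and -0.01 with quantile normalization, and that of far members in Ni-W vs UT from -0.33 to 0.27 with no filter on the level. In BEAS-2B cells, members past 1.5-fold without scaling numbered 0 higher and 8 lower (Ni-E vs UT), 6 and 350 (Ni-W vs UT) and 9 and 305 (Ni-W vs Ni-E). The member shares were 0.0% and 1.59%, 1.19% and 69.6%, and 1.79% and 60.6%. Those of all promoters were 0.263% and 1.24%, 1.1% and 71.9%, and 1.39% and 64.6%. With quantile normalization 1 was higher in Ni-E vs UT, 49 higher and 29 lower in Ni-W vs UT and 43 and 29 in Ni-W vs Ni-E. With a mean of at least 3 RPKM there were 0 and 0 in Ni-E vs UT, beside 0.281% and 0.0272% of all promoters, and 9 higher in each Ni-W comparison. The 9 were 2.25% of the members, beside 1.68% (Ni-W vs UT) and 1.07% (Ni-W vs Ni-E) of all promoters. With no filter there were 129 and 18 in Ni-E vs UT, 221 higher and 122 lower in Ni-W vs UT, and 166 and 231 in Ni-W vs Ni-E. The member shares there were 12.9% and 1.8%, 22.1% and 12.2%, and 16.6% and 23.1%. Those of all promoters were 11.5% and 1.97%, 18.7% and 13.8%, and 17.0% and 24.0%. With 0.1 RPKM added 1 was higher in Ni-E vs UT, 0.199% beside 0.54%. The share of pairs with the same sign was 87.8%, 92.6% and 93.3% over all pairs in place of the far ones. Quantile normalization gave 69.8% for Ni-W vs Ni-E. Of the 20 values of named BEAS-2B members, 12 moved by more than counting error without scaling, 5 with quantile normalization and 0 with 0.1 RPKM added. In RT4 cells DESeq2 called 2 higher and 3 lower (Ni-E vs UT), 2 and 1 (Ni-W vs UT) and 1 lower (Ni-W vs Ni-E), and limma with either pseudocount called 0 lower in Ni-E vs UT. Without each replicate in turn 0 to 1 member was lower in Ni-E vs UT and 0 in all else. With the replicate block the counts were 17 and 15, 9 and 11, and 1 and 3, together 9.04%, 5.65% and 1.13% beside 12.6%, 8.57% and 4.52% of all genes. Under that block, DESeq2 called 7 higher in Ni-E vs UT, 4 and 5 in Ni-W vs UT and 1 lower in Ni-W vs Ni-E. At least 10 counts in every sample gave 3 higher in Ni-W vs Ni-E. These were 0.936%, 0.535%, 0.668%, 0.134% and 1.15% of the members, beside 4.57%, 3.5%, 1.45%, 1.05% and 2.73% of all genes. Leaving out each replicate under the block gave 7 to 23 higher and 5 to 23 lower, 4 to 18 (14 without either Ni-W replicate) and 3 to 21 (19 without Ni-E replicate 1), and 1 to 6 and 3 to 17, with 1 residual degree of freedom and a lone sample assumed to vary like the others. Of 305 values of members named under the block, 71 lost their call. Over the 32 pairs with separate bodies the Ni-W vs UT correlation of member and partner went from a Spearman rho of 0.37 to 0.10, and 56.2% of pairs had the same sign in Ni-W vs Ni-E. The chromatin dynamics score was computed for the sign of named members only and its counts were not run. Causes of these differences were not tested. With 1 library per condition in BEAS-2B, differences between promoters of that line have no replicate error.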

Other observations

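Of the 912 members in both data sets, 441 carried at least 1 RPKM of H3K4me3 in UT BEAS-2B cells, and 41.5% of these had at least 1 TPM in UT RT4 cells, beside 12.3% of the members under 1 RPKM. Over all genes the shares were 78.9% and 15.1%. These are different lines and different measurements, and the difference between members and all genes was not tested. MIF-AS1 and MIF were at 0 RPKM in all 3 BEAS-2B libraries and at 129 and 1127 TPM in the first UT RT4 library.

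SLC7A11-AS1, opposite the cystine carrier gene, had the largest fold change of any member called with the block, a log2 value of 3.19 in Ni-E against UT RT4 cells (edgeR adjusted p = 0.0153), at levels of 0.07 and 0.00 TPM in UT, 0.47 and 0.11 in Ni-E and 0.26 and 0.05 in Ni-W cells. The UT libraries held 3 and 0 counts, so the fitted fold depends on the prior count. FAM13A-AS1 had 6.77 and 4.41, 15.3 and 11, and 13.3 and 6.07 TPM, with 1.24 (adjusted p = 0.00043) in Ni-E and 0.67 (0.0241) in Ni-W cells, and FAM13A had 1.32 in Ni-E cells. Both were picked after their values had been seen.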
